A study of Mus musculus with 12 samples.

Results

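H3K27ac at 9 genes of the PPAR system was examined in the metastatic mouse breast cancer line 4T1: the receptors Ppara, Ppard and Pparg, the receptor partners Rxra and Rxrb, the coactivators Ppargc1a and Ppargc1b, and the corepressors Ncor1 and Nrip1. The members were chosen by name, and every interval of the deposited H3K27ac table that carried one of the 9 symbols was taken, which gave 110 of 126464 intervals and 9 of 22264 symbols. The study asked whether the supply of acetyl-CoA sets histone acetylation in metastatic breast cancer cells. To this end, H3K27ac was measured by chromatin immunoprecipitation and sequencing (ChIP-seq) after 48 h in wild-type 4T1 cells under 6 treatments. Cells received vehicle, etomoxir at 50 µM or etomoxir with SB204990, also at 50 µM, and each of these 3 backgrounds was run without and with acetate at 5 mM. Each treatment had 2 libraries, called set 1 and set 2 after a suffix shared in the labels, which do not say what it stands for, so p-values measure the spread between these libraries, which may be technical. All libraries come from a single cell line. In bulk chromatin, fewer cells with the mark and less mark per cell cannot be told apart.

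PPARs are nuclear receptors that bind fatty acids and their derivatives, pair with a retinoid X receptor (RXR) and sit on DNA elements called DR1, a direct repeat of AGGTCA-like sequences spaced by a single base. With ligand they recruit coactivators such as those encoded by Ppargc1a and Ppargc1b, and without it corepressors such as NCoR1 can keep the target genes low. PPARα and PPARδ are known for driving fatty acid oxidation genes and PPARγ for fat cell differentiation. H3K27ac, acetylation of histone H3 on lysine 27, marks active promoters and enhancers. Etomoxir blocks carnitine palmitoyltransferase, the gate for fatty acid oxidation, SB204990 blocks ATP citrate lyase, which makes acetyl-CoA from citrate, and acetate is another precursor of acetyl-CoA.

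Values were read counts per interval multiplied by 1 spike-in factor per library, where human chromatin (7.5%) had been added to each sample. Reads in intervals ranged from 7179165 to 16676442 per library and the factors from 0.398 to 1. Genes are compared with each other only as scaled value per kb of interval. In vehicle, epithelial markers had a median of 34.9 per kb (6 of 8 with an interval) and adipocyte, fibroblast, immune and endothelial markers had medians of 13.2, 11.6, 16.6 and 19.5 per kb (15 of 18 with an interval), against 16.4 for all genes. No marker with an interval was at 0 in any library.

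The start regions of the receptors are shown first because windows rich in CpG differed in whether an H3K27ac interval covered them. The sequences are RefSeq promoters on GRCm38.p6, from 250 bases before to 50 after a start, on the strand of the gene, with CpG dinucleotides in capitals. Windows of 8 of the 9 genes were used, and Ppargc1b was not among them. The windows of Ppara (chr15:85735526-85735825, plus strand) and of the upstream Pparg start (chr6:115360894-115361193, plus strand) held 30 and 44 CpGs and overlapped no interval. The window of Ppard (chr17:28232504-28232803, plus strand) held 27 CpGs and lay inside a wide H3K27ac domain. The downstream Pparg start (chr6:115421816-115422115, plus strand), which gives the fat cell form PPARγ2, held 2 CpGs and overlapped a weak interval. The window of Ppargc1a (chr5:51567676-51567975, minus strand) held 5 CpGs and overlapped none. The median of 32851 promoters was 7 CpGs.
Ppara: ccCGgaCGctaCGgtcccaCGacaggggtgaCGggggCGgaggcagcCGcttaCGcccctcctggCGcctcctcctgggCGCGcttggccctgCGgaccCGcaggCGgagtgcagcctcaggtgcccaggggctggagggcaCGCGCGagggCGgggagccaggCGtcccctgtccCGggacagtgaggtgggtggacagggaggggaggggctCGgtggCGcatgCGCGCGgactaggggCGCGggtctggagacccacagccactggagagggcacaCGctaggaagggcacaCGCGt
Ppard: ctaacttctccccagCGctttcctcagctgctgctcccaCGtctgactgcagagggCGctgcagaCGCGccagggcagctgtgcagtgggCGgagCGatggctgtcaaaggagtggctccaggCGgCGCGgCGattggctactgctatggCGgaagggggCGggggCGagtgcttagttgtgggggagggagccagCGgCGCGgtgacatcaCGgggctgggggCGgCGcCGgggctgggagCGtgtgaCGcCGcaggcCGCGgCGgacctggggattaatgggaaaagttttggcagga
Pparg upstream: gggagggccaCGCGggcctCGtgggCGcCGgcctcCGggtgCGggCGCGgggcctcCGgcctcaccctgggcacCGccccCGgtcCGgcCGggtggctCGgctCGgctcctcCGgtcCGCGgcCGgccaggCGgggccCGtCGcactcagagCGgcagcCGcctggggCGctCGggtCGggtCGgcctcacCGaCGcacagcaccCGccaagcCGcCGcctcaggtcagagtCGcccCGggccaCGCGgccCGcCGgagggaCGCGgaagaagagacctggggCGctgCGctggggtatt
Pparg downstream: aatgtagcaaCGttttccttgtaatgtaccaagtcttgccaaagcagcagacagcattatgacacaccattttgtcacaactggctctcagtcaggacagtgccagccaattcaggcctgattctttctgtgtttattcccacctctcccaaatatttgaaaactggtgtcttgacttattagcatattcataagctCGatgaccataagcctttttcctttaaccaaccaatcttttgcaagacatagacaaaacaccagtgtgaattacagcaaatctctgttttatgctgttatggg
Ppargc1a: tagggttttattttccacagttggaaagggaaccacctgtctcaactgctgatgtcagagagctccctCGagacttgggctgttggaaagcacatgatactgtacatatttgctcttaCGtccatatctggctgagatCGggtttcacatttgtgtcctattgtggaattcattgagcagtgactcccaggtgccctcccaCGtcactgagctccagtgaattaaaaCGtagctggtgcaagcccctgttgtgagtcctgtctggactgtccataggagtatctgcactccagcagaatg

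In GENCODE, 7 of the 9 genes (77.8%) had a protein-coding start site inside an interval, vs. 54.9% of 21875 protein-coding genes. For Rxrb and Ncor1 the covering interval carried the symbol of a neighbour, H2-Ke6 and Pigl, so that the strongest acetylation at their starts was not counted under their own names. Such a substitution held for 3720 of 12002 covered genes (31%). Ppara and Ppargc1a had no covered start. A consensus DR1 (AGGNCA, any base, then AGGTCA, searched on both strands) was in 0.0944% of all promoters. It was in none of the member windows used, which did not include Ppargc1b. No match says only that these letters are not in these windows. In the intervals, 1 match was found, in an interval 9.42 kb past the end of Rxra (chr2:27772979-27773007, minus strand, motif in capitals), which equals 3.68 per Mb of member interval vs. 5.93 per Mb of all intervals.
Rxra DR1: gtgggctgAGGTCAGAGGTCAcctaccag

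**Figure D1:**
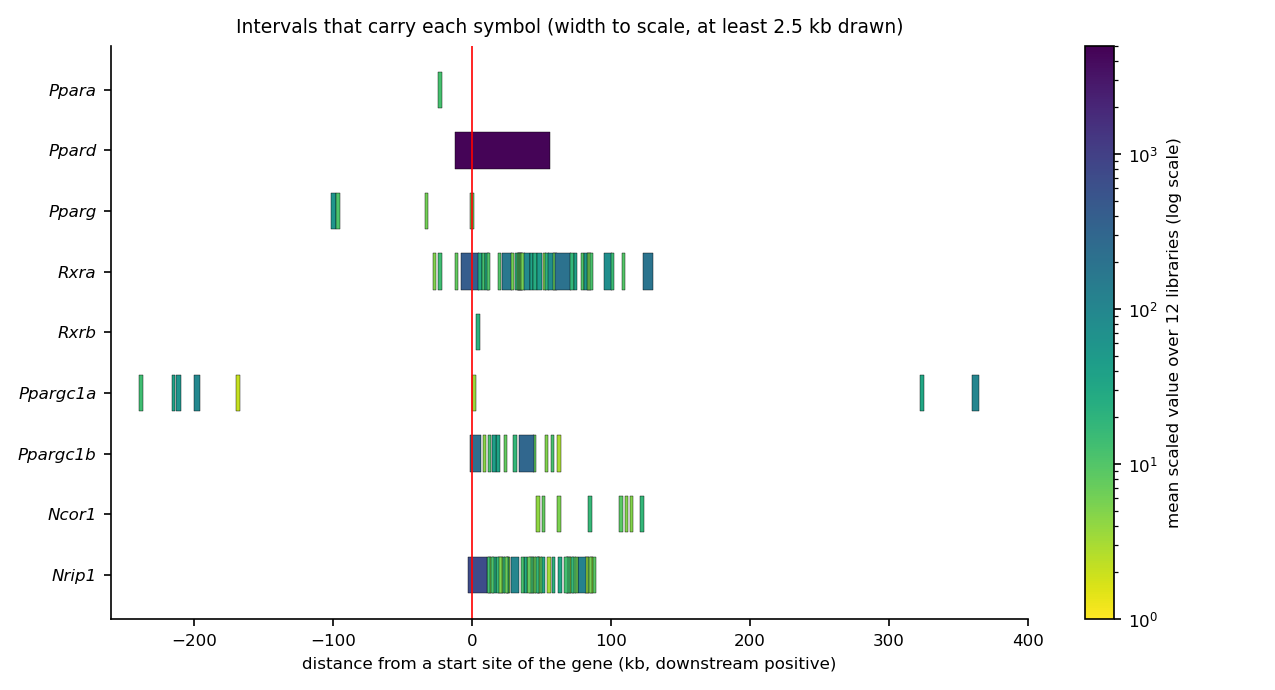
Intervals that carry each member symbol, by distance in kb from a start site of the gene (red line, the covered start with the highest mean, or the most upstream start where none was covered); the colour gives the mean scaled value over 12 libraries on a log scale. Ppard is a single dark domain of 68453 bp, Rxra and Nrip1 have 37 and 38 intervals along the gene, and the intervals of Ppargc1a lie far from the gene.

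The map of intervals separates the 3 receptors. Ppara, the receptor that drives fatty acid oxidation in liver, had a single interval of 1169 bp, intergenic and 21.9 kb upstream of the gene (chr15:85711904-85713072), with 7 to 25 reads per library. Ppard, the broadly expressed receptor, had a single interval of 68453 bp (chr17:28220512-28288964), which ranked 122 by length among all intervals and covered 81.8% of the gene. The domain also held the last 8097 bp of the neighbour Def6. Ppard stood at 67.5 per kb, the 98.5th percentile of genes, while Ppara stood at 10.6 (10.6th percentile) and Pparg at 13.4 (17.1th percentile). Of the Pparg value, 83.1% came from 2 intervals 35.2 to 36.8 kb upstream of the gene, and the interval over the downstream start (chr6:115421488-115422067) had a mean value of 8.02 and 5 to 21 reads.

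Among the partners, Rxra had 37 intervals over 83349 bp, of which 30 touched the gene and 7 lay 9.42 to 37.5 kb outside it. Its start-site interval (chr2:27668918-27681754, mean value 424) held 25% ± 2.15 (SD over 12 libraries) of its value, although the deposited annotation called it intergenic. Rxrb, the ubiquitous RXR, was represented by a single interval of 1175 bp inside the gene (chr17:34035456-34036630) with 15 to 45 reads. The interval over the Rxrb start (chr17:34021652-34034731), named H2-Ke6, also held the starts of Ring1, H2-Ke6 and Slc39a7 and had a mean value of 1073.

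The coactivators differed in where their acetylation lay. All 12 intervals of Ppargc1b, which encodes PGC-1β, touched the gene, and the start-site interval (chr18:61393867-61401723) and an intronic interval (chr18:61355873-61366912) held 34.3% ± 2.96 and 44.1% ± 2.88 (SD over 12 libraries) of its value. For Ppargc1a, which encodes PGC-1α, an inducer of mitochondrial genes, 7 of 8 intervals lay outside the gene by 155 to 260 kb and held 98.9% of its value. The largest (chr5:51189017-51193938) lay 260 kb past the gene end. The only interval inside Ppargc1a had a mean value of 3.84. The values given for Ppargc1a therefore describe distal intervals named after the nearest start.

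Nrip1, which encodes the corepressor RIP140, had 38 intervals, and the one over its start (chr16:76362093-76375960, mean value 712) held 53.4% ± 5.73 (SD over 12 libraries) of its value. The 8 intervals named Ncor1 lay inside the gene and summed to a mean of 70.0, while the interval over the Ncor1 and Pigl starts (chr11:62454730-62461011) had a mean value of 678. Of the 110 member intervals 63.6% were intronic and 3.64% at promoters by the deposited annotation, vs. 51.5% and 6.6% of all intervals. At the mean of at least 10 required for testing, 63 of the 110 intervals and all 9 gene sums could be tested.

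The question of the acetate comparison was whether acetate raises H3K27ac with and without the inhibitors. The Ppard domain had scaled values of 3459 and 3969 in vehicle (set 1, set 2), 4880 and 4906 in acetate, and 3931 and 4081 in etomoxir. It had 6408 and 6191 in etomoxir + acetate, 3041 and 3575 in etomoxir + SB204990, and 4699 and 6311 in etomoxir + SB204990 + acetate. Every acetate library was above both libraries of its background. Averaged over the 3 backgrounds, Ppard was higher by 0.59 ± 0.10 on the log2 scale (SE, limma, adjusted p = 3.08e-05), and the exact two-sided permutation of acetate labels within backgrounds gave p = 0.00926, the smallest its arrangements allow.

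Of the 9 genes 8 rose with acetate (limma, Benjamini-Hochberg adjusted p under 0.05), against 88.2% of 19458 genes called higher, so the count is near the background. The log2 changes ran from 0.41 ± 0.13 (SE) for Ppargc1a to 1.06 ± 0.30 for Rxrb, with a median of 0.60 vs. 0.63 over all genes. Ppara was the gene not called, at 0.55 ± 0.36 (limma, adjusted p = 0.147), although it was called without the etomoxir + SB204990 library of set 2 (adjusted p = 0.0374). The Ncor1 call (0.66 ± 0.22, limma adjusted p = 0.0092) was lost without the vehicle library of set 1 (adjusted p = 0.0558) or the etomoxir + SB204990 + acetate library of set 2 (adjusted p = 0.0736). The exact permutation test, run on each of the 9 genes, gave p = 0.00926 for Ppard, Rxra, Ppargc1b and Nrip1, with acetate higher in 6 of 6 same-set comparisons each (an acetate library against the library of the same set and background, a count only, since the labels do not pair them and the permutation does not use the set). The exact p was 0.0278 for Rxrb and Ppargc1a, 0.037 for Pparg, 0.0556 for Ncor1 and 0.176 for Ppara. The 2 Pparg intervals inside the gene, with means of 6.09 and 8.02, were below the minimum for testing on their own. Of the 63 member intervals tested 45 rose with acetate, vs. 77.2% of 63903 intervals. The 3 with the largest changes and a mean of at least 50 were all named Rxra: 0.96 ± 0.19 (SE) in the gene 2.47 kb before its end (chr2:27757439-27760485), 0.88 ± 0.17 in the interval with the DR1 match (chr2:27772379-27777559) and 0.86 ± 0.16 in an intron (chr2:27714293-27718631). Limma's adjusted p was 1.96e-06, 1.16e-06 and 7.34e-07.

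Each library was rescaled by median of ratios, taken over the intervals with reads in every library. This removed the shift shared by all genes (all-gene median 0.63 before, -0.01 after). Of the 9 members 0 were then called by limma (lowest adjusted p = 0.933, 2 at an unadjusted p under 0.05), as were 0% of all genes. On this scale the acetate value of Ppargc1a was the lower in 6 of 6 same-set comparisons (log2 difference -0.23) and that of Rxra the higher in 6 of 6 (0.12). The exact permutation p was 0.0278 and 0.00926, unadjusted for the 9 genes tested, and limma's p adjusted over all genes was 0.934 and 0.999, so neither difference passed the correction. Rxrb was the highest member at 0.45 ± 0.19 (SE), the 99.7th percentile of genes, on 15 to 45 reads. With each value taken as the share of the library's reads and multiplied by its factor, limma again called 0 of 9 members (0 at an unadjusted p under 0.05) and 0 of 19671 genes (617 at an unadjusted p under 0.05), at an all-gene median of 0.43. The exact permutation p was then 0.12 for Ppard, Ppargc1b and Nrip1 and 0.13 for Rxra, with acetate higher in 5 of 6 same-set comparisons each.

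**Figure D2:**
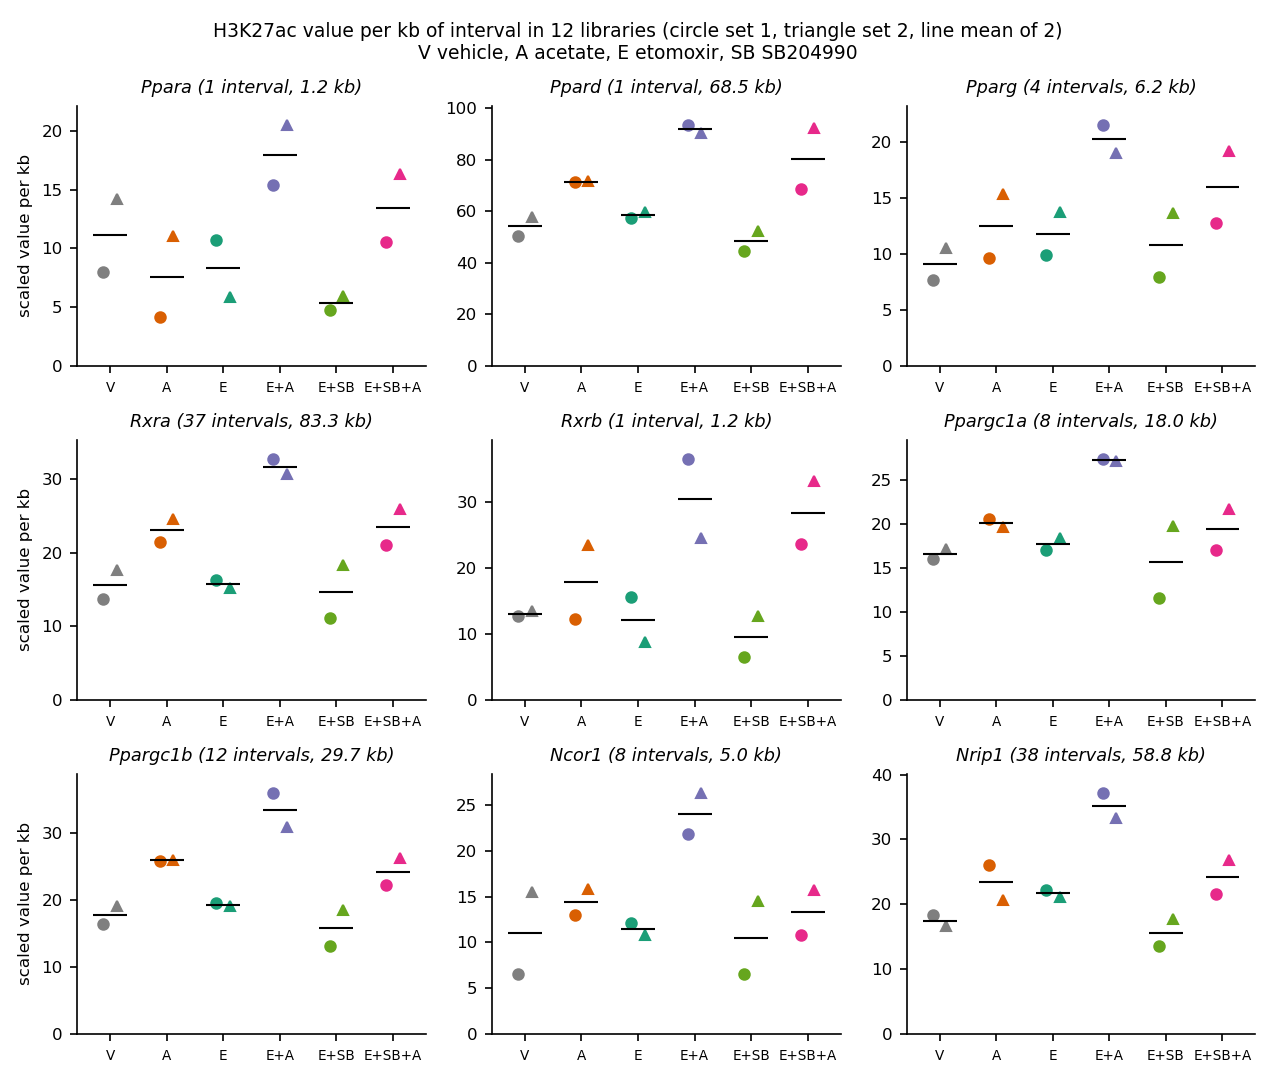
H3K27ac per kb of interval (scaled value per kb, axes from 0, each panel on its own scale) for the 9 genes in the 12 libraries; circles are set 1, triangles set 2 and lines the mean of 2 libraries. Etomoxir + acetate had the highest mean in all 9 panels and also the highest scaled total over all intervals in each set. Ppard stands at 48.3 to 92.0 per kb while the means of the other genes stay between 5.38 and 35.2.

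Etomoxir + acetate had the highest treatment mean in all 9 genes, and etomoxir + SB204990 the lowest in 8, with vehicle the lowest for Pparg. Scaled totals over all intervals had the same extremes in each set. They were highest in etomoxir + acetate (1.37e+07 in set 1, 1.29e+07 in set 2) and lowest in etomoxir + SB204990 (5.35e+06 and 7.18e+06). The share of all genes with this order was not counted, so it is not read as particular to the members. The ratio of highest to lowest treatment mean ran from 1.74 in Ppargc1a to 3.34 in Ppara. Ordered by level, the libraries of neighbouring treatments overlapped in 34 of 45 pairs. For Rxra, etomoxir + acetate (2639.9 ± 125, SD, n = 2) stood above etomoxir + SB204990 + acetate (1958 ± 285) and acetate (1919 ± 186), which overlapped each other, and the 3 treatments without acetate had means of 1225.5 to 1310.3. For Pparg, vehicle had 47.7 and 65.8 and etomoxir + acetate 134 and 118. The other 8 libraries of Pparg lay between 49.4 and 119.7 and overlapped across treatments.

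By background, acetate vs. vehicle called 0 of 9 members by limma (4 at an unadjusted p under 0.05, 0 by edgeR) and 0% of all genes. Etomoxir + acetate vs. etomoxir called 8 of 9 members higher (Ppara was the exception), vs. 78.2% of genes. Adding acetate to etomoxir + SB204990 called Ppard, Rxra, Rxrb, Ppargc1b and Nrip1, 5 of 9, vs. 57.7% of genes. These counts moved with single libraries: without either etomoxir + SB204990 library, acetate vs. vehicle called 4, and without either etomoxir + SB204990 + acetate library it called 1. Without an etomoxir + acetate library of set 1 or set 2 or the etomoxir library of set 2, the 8 became 2, 5 and 4. Without the etomoxir + SB204990 library of set 1 or set 2, or the acetate library of set 2 on that background, the 5 became 1, 9 and 0. Neither interaction of acetate with the inhibitors called a member (limma and edgeR, 0 at an unadjusted p under 0.05 in either). With the set as a term in the fit, acetate vs. vehicle called 2 members, Rxra and Ppargc1b (limma adjusted p = 0.0432 and 0.0455). The 0% of all genes above is from the fit without the set, and the share with it is not given here.

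**Figure D3:**
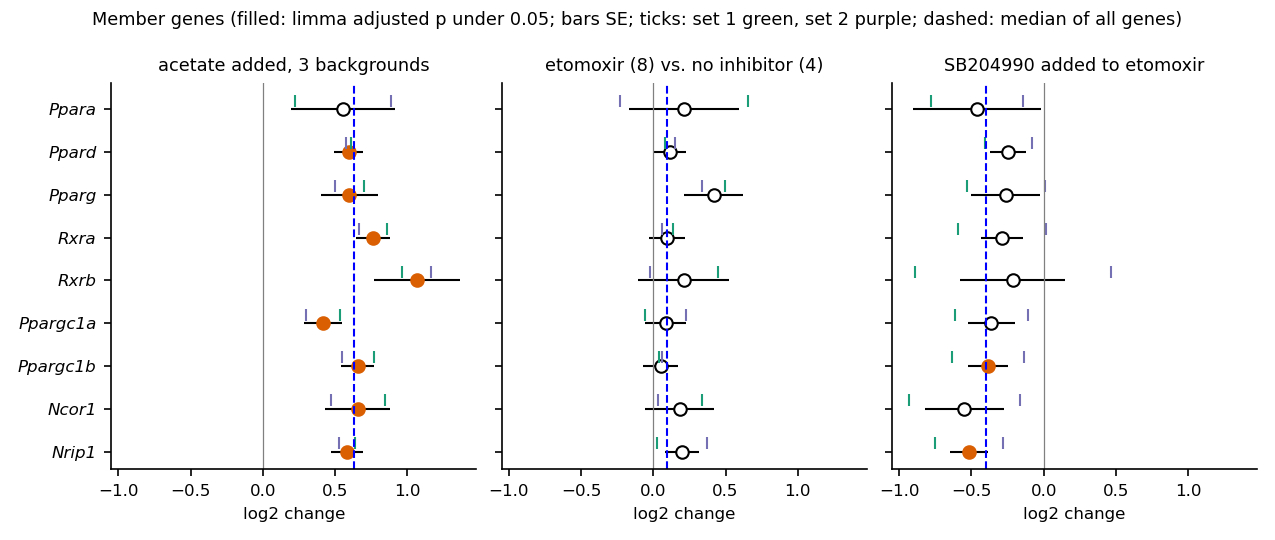
Log2 change of the 9 genes (points, bars are SE of limma) in the acetate, etomoxir and SB204990 comparisons; filled points had an adjusted p under 0.05, ticks are the changes within set 1 (green) and set 2 (purple), and the dashed line is the median of all genes. The member medians of 0.60, 0.18 and -0.36 lie beside all-gene medians of 0.63, 0.10 and -0.40.

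Etomoxir was tested next as the inhibitor of fatty acid entry into mitochondria, the process PPARs are known to regulate. The etomoxir libraries of this comparison include those that also received SB204990. Of the 9 genes 0 were called by limma in the 8 etomoxir libraries vs. the 4 without inhibitor (0 at an unadjusted p under 0.05 by limma or edgeR), against 0.211% of genes called higher and 0% lower. The member changes ran from 0.05 ± 0.12 (SE) for Ppargc1b to 0.42 ± 0.21 for Pparg (unadjusted p = 0.0542, limma adjusted p = 0.994), with a median of 0.18 vs. 0.10 over all genes. Within sets, Pparg was at 0.49 in set 1 and 0.34 in set 2. Without the etomoxir + SB204990 library of set 1, Pparg was called (0.51, limma adjusted p = 0.0255).

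A single member interval rose with etomoxir in this comparison, 1 of 63 vs. 0.23% of all intervals. Etomoxir vs. vehicle, without the SB204990 libraries, called 0 of the 63 by limma or edgeR. The called interval covers exon sequence 3.84 kb before the end of Nrip1 (chr16:76291244-76297139). Its values were 65.4 and 62.6 in vehicle and 105 and 90.5 in acetate (set 1, set 2), and 105 and 88.8 in etomoxir. They were 208 and 203 in etomoxir + acetate, 74.5 and 104 in etomoxir + SB204990, and 128 and 161 in etomoxir + SB204990 + acetate. The libraries with and without etomoxir overlapped, the vehicle pair being the lowest. The change was 0.67 ± 0.16 (SE, limma adjusted p = 0.014), at 0.53 in set 1 and 0.80 in set 2. The call was lost in 9 of 12 fits that left out 1 library and after median-of-ratios scaling (0.51, adjusted p = 0.213).

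This interval was set beside the Nrip1 start-site interval of the same library, a ratio in which the library factor cancels. In the 8 etomoxir libraries it had 12.6% to 23.8% of the start-site value (median 19.4%), and in the 4 others 9.70% to 14% (median 11.9%). The ranges overlapped through 1 library with etomoxir alone, at 12.6% (the other had 14.5%), while the 6 with a further addition lay between 16.0% and 23.8%. This ratio was chosen after its values were seen and is given without a test.

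**Figure D4:**
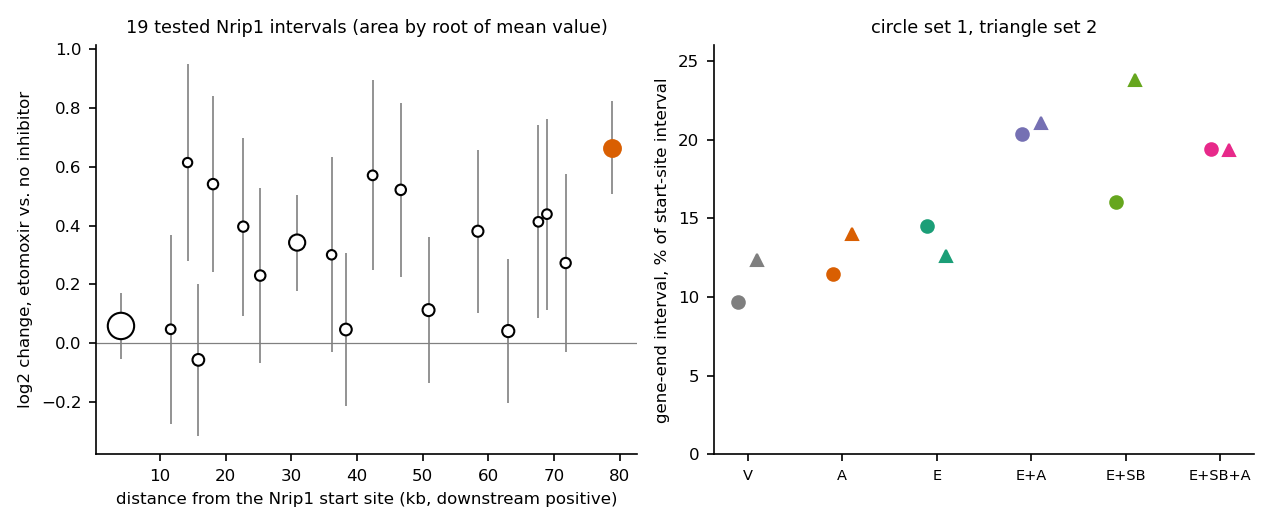
Left, log2 change with etomoxir (bars are SE) of the 19 tested Nrip1 intervals by distance in kb from the start site; the filled point, at the gene end, is the interval called by limma. Right, its value as percent of the start-site interval in the 12 libraries (circles set 1, triangles set 2), with the vehicle library of set 1 lowest at 9.70%.

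SB204990 was tested on top of etomoxir, averaged over acetate. Nrip1 had sums of 1310 and 1240 in etomoxir, 2188 and 1956 in etomoxir + acetate, 799 and 1039 in etomoxir + SB204990, and 1268 and 1580 in etomoxir + SB204990 + acetate. In each acetate state both libraries with SB204990 were below both without it. Nrip1 fell by 0.52 on the log2 scale (SE 0.13, limma adjusted p = 0.0276) and Ppargc1b fell by 0.38 (SE 0.14, adjusted p = 0.0339), and the other 7 genes were not called. With the set as a term in the fit, 5 members were called, Rxra, Ppargc1a and Ncor1 in addition (limma adjusted p = 0.0404, 0.031 and 0.0347). The share of all genes called in that fit is not given here, so the 5 are not read against a background. In the fit without the set, the 2 of 9 compare with 45% of all genes called lower, and the member median of -0.36 with -0.40 over all genes. At the interval level 2 of 63 were lower, vs. 19.2% of all intervals. The Nrip1 start-site interval fell by 0.54 (SE 0.13, limma adjusted p = 0.00663) and the intronic Ppargc1b interval fell by 0.48 (SE 0.15, adjusted p = 0.0173). The change was more negative in set 1 than in set 2 in all 9 genes, and above 0 in set 2 for Pparg, Rxra and Rxrb, at -0.75 and -0.28 for Nrip1 and -0.63 and -0.13 for Ppargc1b. No member was called by limma after median-of-ratios scaling (lowest adjusted p = 1.0, and 0 at an unadjusted p under 0.05), without the intensity trend, or in the fit without any 1 of 5 libraries (either etomoxir library, either etomoxir + acetate library or the etomoxir + SB204990 + acetate library of set 1). Without the etomoxir + SB204990 library of set 2, 7 genes and 38 intervals were called, and without the etomoxir + SB204990 + acetate library of set 2, 4 genes and 8 intervals. Without either acetate library or the etomoxir + SB204990 library of set 1, 1 gene was called. Etomoxir vs. vehicle and etomoxir + SB204990 vs. vehicle called 0 members by limma or edgeR (0 at an unadjusted p under 0.05), vs. 0.0154% and 0.00514% of genes called higher. The log2 difference from vehicle was below 0 in 2 of 9 members with etomoxir (Ppara -0.39 and Rxrb -0.15) and in 8 of 9 with etomoxir + SB204990, from -0.90 for Ppara to 0.21 for Pparg.

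The intervals over the Rxrb and Ncor1 starts, which carry other symbols, were chosen after the symbols were seen. With acetate they were higher by 0.65 ± 0.10 and 0.40 ± 0.11 (SE, limma adjusted p = 6.89e-09 and 0.000486), and the interval inside Rxrb was higher by 1.06. After median-of-ratios scaling the acetate changes at the 2 starts were 0.004 and -0.24 (limma adjusted p = 0.999 and 0.857). With read share times factor they were 0.44 and 0.20 (limma adjusted p = 0.491 and 0.578), so both acetate calls were lost under either scaling. With SB204990 the log2 changes were -0.35 and -0.43 (limma adjusted p = 0.0381 and 0.0167). The SB204990 calls were lost after median-of-ratios scaling (0.03 and -0.06) and without the intensity trend. The Rxrb call was also lost in 10 of 12 fits that left out 1 library, all but those without the set 2 libraries with SB204990, and its change was -0.22 without the etomoxir + SB204990 + acetate library of set 1. In set 2 the Rxrb start had 1431 in etomoxir + acetate and 1466 with SB204990 added. The Ncor1 call was lost in 5 of 12, those without either etomoxir library, either etomoxir + acetate library or the etomoxir + SB204990 + acetate library of set 1. With etomoxir they were at 0.04 ± 0.11 and -0.01 ± 0.11 (SE, limma adjusted p = 0.985 and 0.997).

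The genes around the receptors were taken from lists of other receptors and coregulators, fatty acid carriers and PPAR targets. Of 16 other receptors and coregulators tested (19 in the list), 16 rose with acetate, 0 changed with etomoxir (limma, 0 at an unadjusted p under 0.05) and 12 fell with SB204990, where 88.2% of all genes were called higher with acetate and 45% lower with SB204990. After median-of-ratios scaling 0 were called in the 3 comparisons (limma). Their medians on the log2 scale before that scaling were 0.65, 0.10 and -0.46, vs. 0.63, 0.10 and -0.40 over all genes. Of 3 carriers tested (7 in the list), 3 rose with acetate and 0 were called in the other 2 comparisons (limma). Of 40 PPAR targets tested (55 in the list), 37 rose with acetate, 9 rose with etomoxir and 11 fell with SB204990, where 88.2%, 0.211% and 45% of all genes were called in these directions. The medians of the targets were 0.68, 0.27 and -0.35, vs. the same all-gene medians. With etomoxir the change was 1.41 ± 0.12 (SE) for Pdk4, a kinase that restrains pyruvate oxidation, and 1.16 ± 0.13 for Acot2, a mitochondrial thioesterase (limma adjusted p = 9.10e-08 and 8.28e-06). Pdk4 had 710.5 and 937 in vehicle and 2204 and 2301 in etomoxir, and all 8 etomoxir libraries (lowest 1648.5) stood above the 4 others (highest 1106). After median-of-ratios scaling 5 of the 40 targets were called with etomoxir, vs. 0.108% of all genes, and 0 with acetate or SB204990 (limma). Over the 59 genes of the 3 lists, the 9 called with etomoxir became 1 with read share times factor, 5 without the intensity trend and 18 without the etomoxir + SB204990 library of set 1. The 23 called with SB204990 became 0 under that scaling or without the trend, and between 0 and 49 with 1 library left out (49 without the etomoxir + SB204990 library of set 2, 11 without that of set 1, and 0 without either etomoxir library, either etomoxir + acetate library or the etomoxir + SB204990 + acetate library of set 1). The 56 called with acetate became 0 under that scaling. With acetate the largest were Acaa1b (1.16), Acadvl (0.90) and Adipoq (0.89), a peroxisomal thiolase, a mitochondrial acyl-CoA dehydrogenase and adiponectin. Acaa1b was close to the minimum for testing, with sums of 5.61 to 28 over the libraries. With SB204990 Hadha fell by 0.62 and Ncoa3 fell by 0.59, which encode a subunit of the mitochondrial trifunctional protein and a coactivator of nuclear receptors.

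**Figure D5:**
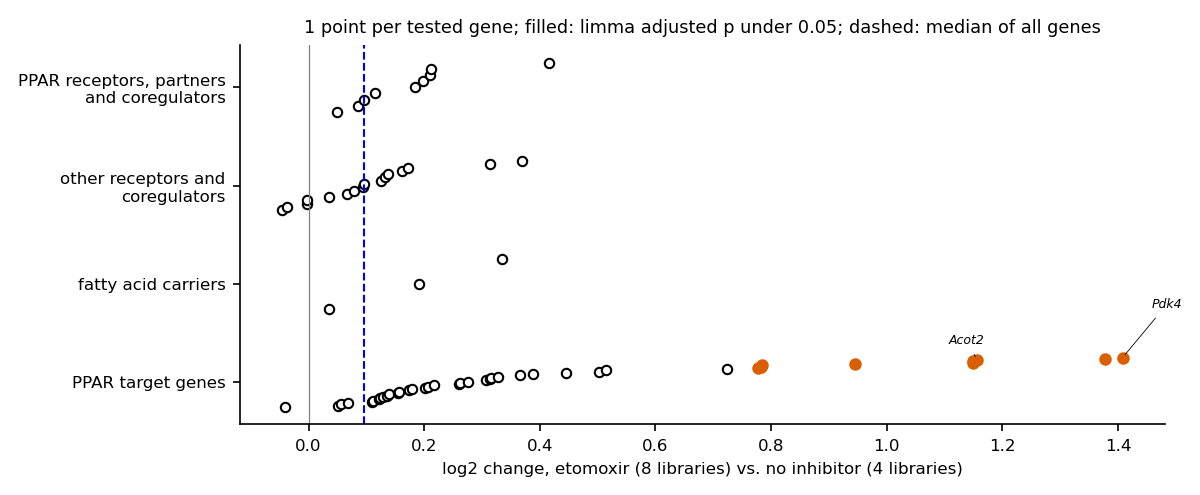
Log2 change with etomoxir of the tested genes of the 9 members and of the 3 surrounding lists (1 point per gene; filled, limma adjusted p under 0.05; dashed line, all-gene median of 0.10). The 9 filled points all belong to the PPAR targets, and the members lie between 0.05 and 0.42.

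The genes whose pattern over the 12 libraries was most like each receptor were named by Pearson's r on median-of-ratios scaled sums, a description over libraries that share treatments and depth. For Ppard, on 3575 to 8084 reads, they were Clcf1 (0.988), Sh2d5 (0.987) and 8030456M14Rik (0.986). Ppargc1a was most like Tspyl5 (0.954), Gm2822 (0.941) and Vwc2l (0.941). For Pparg, on 83 to 149 reads, they were Gm42678 (0.853), Ngef (0.785) and Gm28380 (0.784). For Ppara, on 7 to 25 reads, they were Gm15346 (0.812), Smim5 (0.785) and Ppih (0.767). For both, these were the highest r among 13190 genes. Whether they exceed the highest r that unrelated genes would reach over 12 libraries was not tested.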

How the data were processed

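H3K27ac ChIP-seq was analysed from 1 deposited table of 126464 mouse intervals and 12 libraries. The deposited signal values were made by the authors as the read count in an interval multiplied by 1 spike-in factor per library, the factor being taken from human reads after alignment to human GRCh38 and mouse mm10 together in the nf-core/chipseq workflow. The factor is 1 in 1 library of each set, so factors stand on a separate scale in each set. The authors' processing notes also name deepTools. Whether intervals were called on pooled libraries is not given in the sources used here. Division by the factor gave whole reads for 100% of values (tolerance 0.01). Intervals take the symbol of the nearest start site, as deposited.

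Values were summed per symbol. Genes and intervals with a mean of at least 10 were tested on log2(value + 1) with limma 3.58.1 (R 4.3.3, intensity trend, 6 group means, Benjamini-Hochberg over all features, threshold 0.05), so fold changes of low features are understated. Acetate was averaged over 3 backgrounds, etomoxir compared 8 with 4 libraries, and SB204990 was compared on etomoxir. An exact two-sided permutation test was run per gene for acetate. edgeR 4.0.16 on recovered reads, other scalings (median of ratios, and read share times factor), filters, pseudocounts, a set block, fits without each library, and sums limited to 20 kb of a start or extended to intervals over own starts (the last added after seeing the data) were alternatives. limma and edgeR were tested on simulated data. The study states no test for these data.

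Members and lists were chosen with earlier results of these data known. Named were all members, the interval with the highest mean and the one over or nearest the start of each gene, up to 3 called intervals with a mean of at least 50 and up to 3 called list genes per averaged comparison by size of change, and the 3 genes most like Ppara, Ppard, Pparg and Ppargc1a. Some list genes that this rule names are not reported here. Start sites and gene spans were from GENCODE vM21 and sequences from RefSeq on GRCm38.p6, the build the table uses. Read counts cover counting error only.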

Additional observations from a re-analysis of the deposited data

Results flagged for a closer look

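Ppara was singled out because the sign of its acetate difference was not the same in all backgrounds. Its log2 difference was -0.58 in acetate vs. vehicle (-0.83 in set 1 and -0.34 in set 2), 1.076 in etomoxir + acetate vs. etomoxir (0.49 and 1.67) and 1.17 when acetate was added to etomoxir + SB204990 (1.01 and 1.33). None of the 3 was called (limma adjusted p = 0.412, 0.111 and 0.105). The difference was below 0 in both sets without inhibitor and above 0 in both sets with it. The test of the difference itself, limma's interaction, gave 1.66 ± 0.89 (SE, adjusted p = 0.774) and 1.76 ± 0.89 (SE, adjusted p = 0.999). The values rest on the single intergenic interval with 7 to 25 reads per library.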

How the results depend on the processing

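After median-of-ratios scaling, and with read share times factor (by share), 0 members were called for acetate (8 before), for SB204990 (2), for etomoxir + acetate vs. etomoxir (8) and for acetate on etomoxir + SB204990 (5), and 0 intervals for acetate (45), etomoxir (1) and SB204990 (2). The other pathway genes, 56, 9 and 23 of 59 in the 3 averaged comparisons, became 0, 5 and 0 after median of ratios, and 0, 1 and 0 by share. Without the intensity trend SB204990 called 0 members, 0 intervals and 0 pathway genes, and etomoxir 0 intervals and 5 pathway genes. A mean of at least 50 left 16 intervals for acetate and gave 6 for SB204990, and no filter gave 0 for etomoxir and 1 for SB204990. Sums within 20 kb of the start left out Ppara and Ppard and took Pparg and Ppargc1a below the minimum mean. For Pparg and Ppargc1a the log2 differences with acetate were then -0.0414 and 0.996, each in 1 remaining interval (means 6.09 and 3.84). The sums within 20 kb called 5 members for acetate, 4 for etomoxir + acetate vs. etomoxir and 1 for SB204990. Sums with the intervals over own starts called 5 for SB204990. Under median of ratios the median ratio of highest to lowest treatment mean was 1.25 (2.22 before), and the exact permutation test was at or under 0.05 in 2 genes, and in 0 by share (7 before).

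The labels do not say that the set numbers pair the libraries, and the deviations of same-numbered libraries correlated at -0.149 to 0.354 over the pairs of treatments. The correlations were positive among vehicle, acetate and etomoxir + SB204990 (0.299, 0.327 and 0.354) and near or below 0 in the others. They were taken over intervals and centred per library, so they cannot show a shift common to all intervals of a set. The fit without the set was kept because the labels give the set no meaning. With set as a replicate block, SB204990 called 5 members and 7 intervals and acetate vs. vehicle called 2 members. The shares of all features called with the block are not given here.

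With 1 library left out, members called ranged from 7 to 9 for acetate, 0 to 1 for etomoxir, 0 to 7 for SB204990, 0 to 4 for acetate vs. vehicle, 2 to 9 for etomoxir + acetate vs. etomoxir and 0 to 9 for acetate on etomoxir + SB204990, and were 0 to 0 in the other comparisons. Intervals ranged from 31 to 60, 0 to 1 and 0 to 38, and pathway genes from 53 to 59, 6 to 18 and 0 to 49.

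Log2 changes turned sign in 24 cases. Under median of ratios acetate gave -0.0384 for Ppara, -0.0520 for Ppard, -0.0384 for Pparg, -0.23 for Ppargc1a and -0.0629 for Nrip1, and etomoxir gave -0.0451 for Ppard, -0.0643 for Rxra, -0.0754 for Ppargc1a and -0.11 for Ppargc1b. SB204990 gave 0.13 for Ppard, 0.11 for Pparg, 0.0870 for Rxra, 0.14 for Rxrb and 0.0135 for Ppargc1a, and by share 0.0261 for Ppard, 0.00713 for Pparg and 0.0450 for Rxrb. With 1 library left out the etomoxir change ranged from -0.10 to 0.53 for Ppara, -0.0113 to 0.43 for Rxrb, -0.0111 to 0.18 for Ppargc1a, -0.0129 to 0.11 for Ppargc1b and -0.12 to 0.49 for Ncor1, and that of SB204990 from -0.44 to 0.0115 for Rxrb. The libraries that turned the sign were acetate of set 1 (Ppara, Rxrb), vehicle of set 1 (Ncor1, Ppargc1b), etomoxir + SB204990 of set 2 (Ppargc1a, Ppargc1b) and, with SB204990, that of set 1 (Rxrb). None of these turned values was called, and their cause was not tested. Of the other gene and interval results, 585 kept direction and call, 71 lost the call and 16 gained it. Ppara and Rxrb rest on 7 to 45 reads per library.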
